A study of Mus musculus with 9 samples.

Results

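The genes described here encode the proteins of the mitochondrial ribosome. They were taken as every annotated entry of the deposited table with an Ensembl identifier and a symbol of the Mrpl or Mrps series, pseudogenes left out. This gave 78 genes, 49 of the Mrpl series and 29 of the Mrps series, of 22036 annotated genes. All 78 passed the filter on low counts that left 14160 genes for testing, and their counts ran from 374 to 9991 per gene and library. Left ventricles of 9 wild-type (WT) mice were sequenced as bulk RNA, and every group held 3 biological replicates. ND AAV-CON mice had normal diet (taken as the meaning of ND) and an adeno-associated virus (AAV) with the label CON, taken to be a control vector. HFD AAV-CON mice had high-fat diet (taken as the meaning of HFD) with the same control vector, and HFD AAV-BCKDK mice had the HFD diet with a vector named for the kinase BCKDK. All 9 mice carried an AAV vector. The sources used here do not state age or sex, how long the diet lasted, or the dose and promoter of the vectors. BCKDK phosphorylates and inhibits the dehydrogenase of branched-chain α-keto acids, and the title of the series places the study in obesity-related remodelling of the heart.

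The mitochondrial ribosome is assembled inside the organelle from ribosomal RNA encoded by mitochondrial DNA and from proteins that are all encoded in the nucleus and imported. It has a small subunit, which reads the mRNA, and a large subunit, which forms peptide bonds and releases the chain towards the inner membrane. Its products are the few hydrophobic subunits of the respiratory chain and the ATP synthase that mitochondrial DNA still encodes, so cardiac muscle, which is densely packed with mitochondria, carries much of it. Some of its proteins have a counterpart in bacterial ribosomes, and others were added in the mitochondrial lineage. By this division, 30 genes encode large subunit proteins with a bacterial counterpart, 21 encode large subunit proteins specific to mitochondria, 16 encode small subunit proteins with a bacterial counterpart and 10 encode mitochondrion-specific small subunit proteins. Mrps18a and Mrps30 keep small subunit names although their products sit in the large subunit. Mrps36 stands in none of these groups, since its product is also known as KGD4, a component of the α-ketoglutarate dehydrogenase complex.

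Libraries held 32803233 to 45483044 counts in annotated genes, of which the 78 genes took 102108 to 159643. Bckdk, the check of the vector label, stood at 70.3 to 78.6 CPM (counts per 1000000 of the library size after TMM scaling) in ND AAV-CON, at 37.1 to 65.0 CPM in HFD AAV-CON and at 110.9 to 125.7 in HFD AAV-BCKDK. For the heart label, 12 cardiomyocyte markers summed to 25440 to 59200 CPM per library, and none of them was at 0 in any library. The 3 atrial markers summed to 0.72 to 1.91 CPM. The HFD AAV-CON libraries differed most among themselves: the median SD of a member's log2 CPM was 0.29 there, against 0.14 for the ND AAV-CON libraries and 0.12 for HFD AAV-BCKDK. HFD AAV-CON replicate 1 was the lowest of all 9 libraries in 75 of the 78 genes, and replicate 2 was the highest of its group in 77. Replicate 3 lay between the other two in 74 of 78 genes (94.9%) against 64.1% of all genes tested, and it had 1.02% of its counts in loci without a gene name against 4.75% to 6.01% in the other libraries.

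The high-fat diet under the control vector was compared with normal diet under the same vector to ask how the diet bears on the ventricle. Transcripts of mitochondrial ribosomal proteins were lower almost throughout. With edgeR's quasi-likelihood test and Benjamini-Hochberg adjustment over all genes, 67 of the 78 genes fell in HFD AAV-CON, none rose and 11 were not called, against 20.6% of all genes tested called lower. The median log2 fold change of the 78 genes was -0.58, beside -0.0018 over all genes tested, and all 78 fold changes were negative, from -1.56 in Mrpl53 to -0.15 in Mrps25. The level in HFD AAV-CON was 33.9% to 90.1% of that in ND AAV-CON, with a median of 66.8%. In 68 genes all 3 HFD AAV-CON libraries lay below all 3 ND AAV-CON libraries, against 27.1% of genes tested. Of the genes called lower, 38 were at least 1.5-fold lower and 2, Mrpl53 and Mrps35, at least 2-fold lower. The count of genes called lower was 36 without ND AAV-CON replicate 2, 42 without HFD AAV-CON replicate 3 and 50 without HFD AAV-CON replicate 1. The share of all genes called in these smaller fits is not given here. In bulk tissue, fewer cells of a type and less RNA per cell cannot be told apart.

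**Figure D1:**
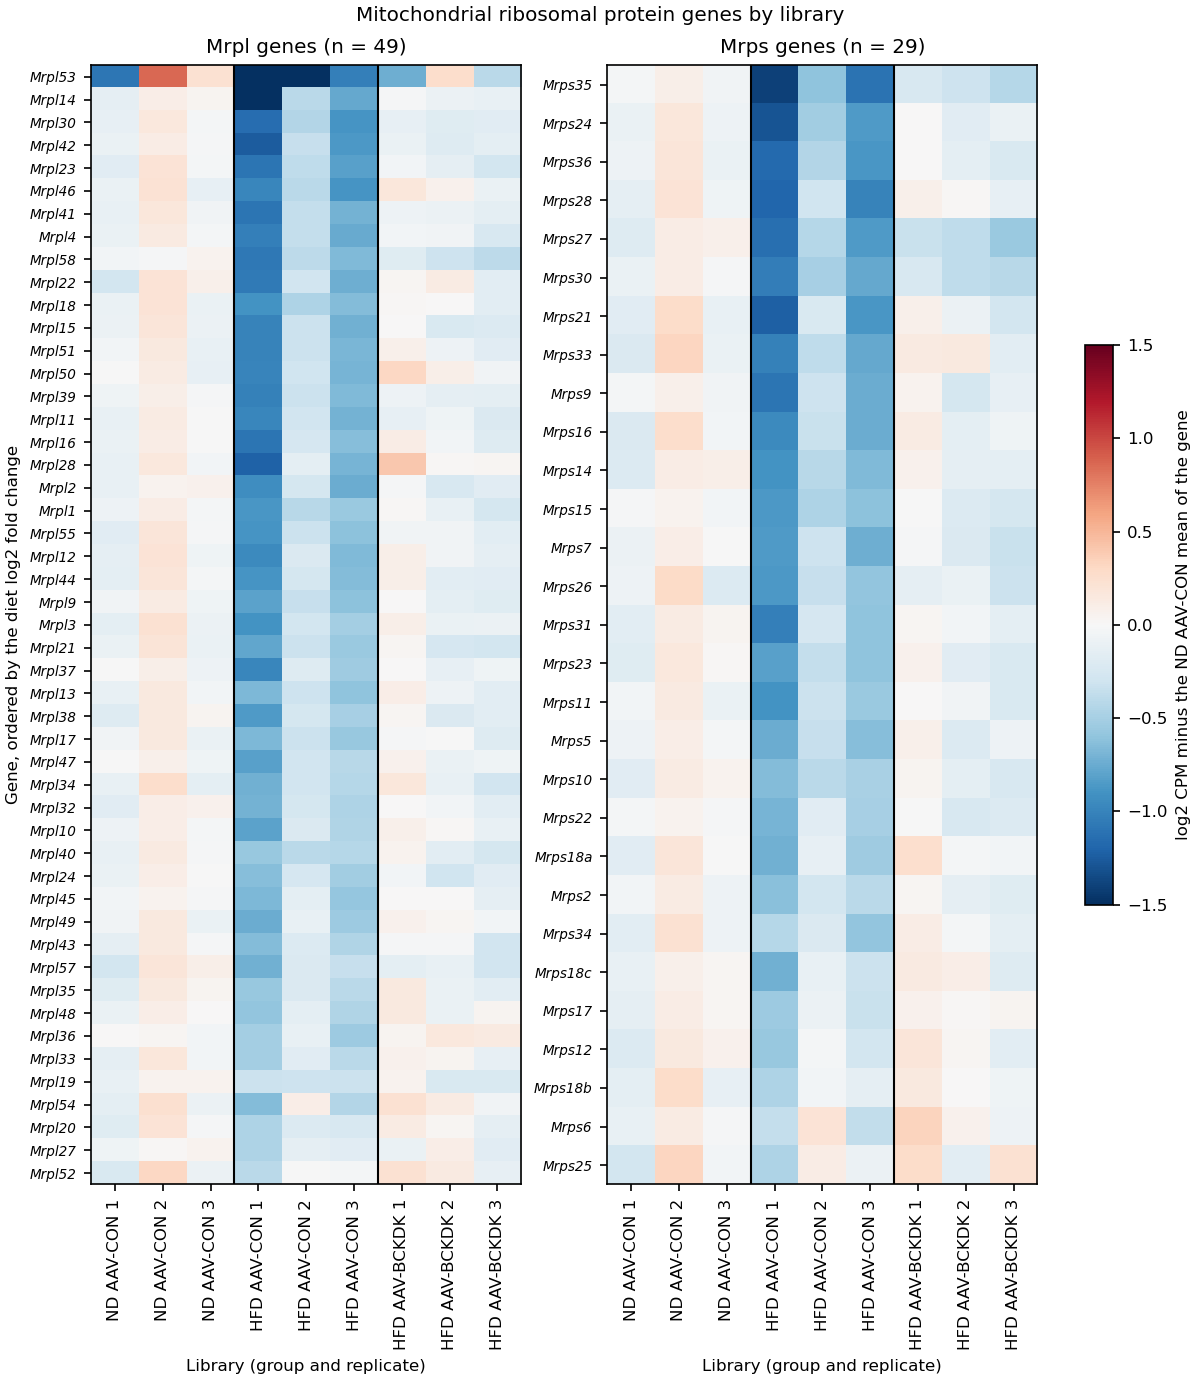
Level of each of the 78 genes in each library as log2 CPM minus the gene's ND AAV-CON mean, with Mrpl genes on the left and Mrps genes on the right, ordered by the diet fold change (colours end at -1.5 and 1.5, and Mrpl53 passes the lower end). The 3 HFD AAV-CON columns are blue in nearly every gene, deepest in replicate 1 and palest in replicate 2, while the HFD AAV-BCKDK columns are close to the ND AAV-CON columns.

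The scale of these fold changes depends on how libraries are made comparable. The main analysis used TMM factors, which assume that most genes do not change, and these ran from 0.91 to 0.96 in ND AAV-CON, from 1.03 to 1.42 in HFD AAV-CON and from 0.86 to 0.93 in HFD AAV-BCKDK. When libraries were scaled by their total counts instead, the median over all genes tested shifted to 0.40 in the diet comparison and to -0.47 in the vector comparison. The median of the 78 genes was then -0.21, with 19 genes called lower against 6.6% of all genes, and 66 of the 78 fold changes stayed below 0. Relative to the median of all genes, the members' median was -0.58 with TMM factors and -0.61 with total counts. A change of scaling shifts all genes by nearly the same amount. The likeness of these values is therefore built in and cannot tell which scaling is right. The 12 genes whose diet fold change was above 0 with total counts were Mrpl36, Mrpl33, Mrpl19, Mrps17, Mrpl54, Mrpl20, Mrps12, Mrpl27, Mrps18b, Mrpl52, Mrps6 and Mrps25, none of them called.

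Mrps35, a mitochondrion-specific protein of the small subunit, had the smallest p in the diet comparison. The gene (ENSMUSG00000040112) lies at chr6:147042764-147073991 on the plus strand of GRCm38. Its level was 74.9, 81.4 and 73.8 CPM in the ND AAV-CON libraries, 29.1, 50.5 and 35.6 CPM in HFD AAV-CON, and 64.9, 61.6 and 57.2 CPM in HFD AAV-BCKDK. The 3 groups did not overlap: every HFD AAV-CON library was lowest, and every HFD AAV-BCKDK library lay between the other groups. The log2 fold change was -1.0 ± 0.17 (SE, n = 3 a group) with diet (edgeR, adjusted p = 0.00215) and 0.68 ± 0.17 with the vector (edgeR, adjusted p = 0.0150). The vector call was lost without HFD AAV-CON replicate 3 (edgeR, adjusted p = 0.0529) and without HFD AAV-BCKDK replicate 1 (edgeR, adjusted p = 0.0507).

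Mrps30 was second by p. Its product is a large subunit protein despite its name, and the gene (ENSMUSG00000021731) lies at chr13:118378381-118387252 on the minus strand. Mrps30 stood at 44.4, 51.7 and 47.2 CPM in ND AAV-CON, at 23.1, 33.7 and 28.0 CPM in HFD AAV-CON and at 40.2, 36.5 and 35.7 CPM in HFD AAV-BCKDK. As in Mrps35, the groups did not overlap and HFD AAV-BCKDK was the middle one. The fold change was -0.76 ± 0.13 with diet (edgeR, adjusted p = 0.00220) and 0.41 ± 0.13 with the vector (edgeR, adjusted p = 0.0339), and the vector value turned to -0.02 with total-count scaling (edgeR, adjusted p = 0.870). The vector call of Mrps30 was also lost without any 1 of HFD AAV-CON replicates 1 and 3 or the 3 HFD AAV-BCKDK replicates (edgeR, adjusted p = 0.0596 to 0.106).

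The region before and just after the start of transcription is shown for 4 genes. Several nuclear factors are known to bind promoters of mitochondrial genes, and their part in the members' change was not tested. Mrps30 was given by rule as 1 of the 2 genes with the smallest diet p; Mrps35 is the other and is named only. Mrpl30, Mrps21 and Mrpl58 were chosen after their values were seen, for the motifs in their windows. Each window holds 300 bases, 250 before the start and 50 from it, 5′ to 3′ on the strand of the gene, from RefSeq on GRCm38.p6. Capitals mark matches, on either strand, to CCGGAAG (bound by ETS family factors, GABP among them), GCGCANGCG (bound by NRF1, nuclear respiratory factor) or AANATGGCG (bound by YY1).
Mrps30, chr13:118387203-118387502, minus strand: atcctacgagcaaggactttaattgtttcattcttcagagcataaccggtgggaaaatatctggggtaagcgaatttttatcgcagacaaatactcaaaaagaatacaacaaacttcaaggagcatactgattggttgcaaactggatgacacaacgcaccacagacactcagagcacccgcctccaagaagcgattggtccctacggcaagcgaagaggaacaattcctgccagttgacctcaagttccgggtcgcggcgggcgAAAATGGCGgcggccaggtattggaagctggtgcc
Mrpl30, chr1:37890227-37890526, plus strand: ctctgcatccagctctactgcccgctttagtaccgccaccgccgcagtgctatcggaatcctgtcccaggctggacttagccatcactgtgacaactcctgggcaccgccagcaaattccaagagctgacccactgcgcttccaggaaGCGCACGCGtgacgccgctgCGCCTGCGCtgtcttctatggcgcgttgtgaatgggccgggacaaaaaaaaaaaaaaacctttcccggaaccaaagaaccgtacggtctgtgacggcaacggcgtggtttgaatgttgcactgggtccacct
Mrps21, chr3:95871465-95871764, minus strand: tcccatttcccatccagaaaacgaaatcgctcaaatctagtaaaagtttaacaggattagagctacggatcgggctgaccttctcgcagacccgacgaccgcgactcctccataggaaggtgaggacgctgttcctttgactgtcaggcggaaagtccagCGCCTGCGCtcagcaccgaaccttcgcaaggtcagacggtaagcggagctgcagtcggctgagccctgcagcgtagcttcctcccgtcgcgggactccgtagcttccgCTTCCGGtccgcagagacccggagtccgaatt
Mrpl58, chr11:115403502-115403801, plus strand: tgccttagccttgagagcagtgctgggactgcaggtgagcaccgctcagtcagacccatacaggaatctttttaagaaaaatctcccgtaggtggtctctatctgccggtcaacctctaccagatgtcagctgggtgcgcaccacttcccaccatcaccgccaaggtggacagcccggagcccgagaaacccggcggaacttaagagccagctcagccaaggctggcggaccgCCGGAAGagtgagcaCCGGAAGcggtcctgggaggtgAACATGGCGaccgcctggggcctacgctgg
In Mrps30 the capitals are a YY1 match that begins 15 bases after the start. In Mrpl30 they are a pair of NRF1 matches that begin at -102 and -82. In Mrps21 the first is an NRF1 match at -90 and the second an ETS match at 18, and in Mrpl58 a pair of ETS matches at -17 and -2 is followed by a YY1 match at 20.

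Windows were found for 69 of the 78 genes, 75 windows in all, since some genes have more than 1 start. CCGGAAG was present in 34.7% of these windows, against 8.9% of 32851 windows of the same length over all genes and 15.9% of the windows of genes tested here. GCGCANGCG was present in 21.3% of member windows, against 6.2% of all windows and 12.0% of those of genes tested. AANATGGCG was present in 14.7%, against 2.4% and 4.5%. The E-box CACGTG, bound by MYC among others, was present in 9.3% against 7.2% and 9.5%, and AAGGTCA, bound by estrogen-related receptors, in 5.3% against 4.7% and 3.3%. Both strands were searched, and a match to 1 motif may overlap a match to another. Member windows held a median of 21 CpG pairs, against 7 over all windows and 19 over those of genes tested, so base composition differs from the whole set too. Other sets held these motifs too: windows of cytosolic ribosomal protein genes held CCGGAAG in 34.3%, GCGCANGCG in 11.4% and AANATGGCG in 14.3%, and those of nuclear oxidative phosphorylation genes in 18.4%, 30.6% and 12.2%. The median diet log2 fold change was -0.53 in the 26 genes with CCGGAAG and -0.60 in the 43 without, and -0.59 in the 16 genes with GCGCANGCG and -0.58 in the 53 without. It was -0.58 in the 11 genes with AANATGGCG and -0.59 in the 58 without, -0.38 in the 5 genes with CACGTG and -0.59 in the 64 without, and -0.61 in the 4 genes with AAGGTCA and -0.58 in the 65 without. These differences were not tested. A match describes the letters in the window and is not a measured binding site.

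Large subunit proteins with a bacterial counterpart form the core around the peptidyl transferase centre and the exit tunnel. Of these 30 genes, 27 fell with diet, with a median log2 fold change of -0.57, and in all 30 the HFD AAV-CON libraries lay below the ND AAV-CON libraries. The other 3 were Mrpl28 (-0.63, adjusted p = 0.0530), Mrpl20 (-0.31, adjusted p = 0.0659) and Mrpl27 (-0.25, adjusted p = 0.0902), all by edgeR. Mrpl18, a protein of the central protuberance, had the smallest p. Mrpl18 stood at 97.8, 120.4 and 97.9 CPM in ND AAV-CON, at 56.4, 75.9 and 67.0 CPM in HFD AAV-CON and at 105.7, 105.7 and 93.7 CPM in HFD AAV-BCKDK. HFD AAV-CON was the low group and the other groups overlapped. Its fold change was -0.67 ± 0.13 with diet (edgeR, adjusted p = 0.00348) and 0.61 ± 0.13 with the vector (edgeR, adjusted p = 0.00682).

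Mrpl30, whose promoter is shown above, was the largest diet decrease in this core after Mrpl14. Its level was 132.4, 162.1 and 141.4 CPM in ND AAV-CON, 65.4, 106.6 and 78.6 CPM in HFD AAV-CON, and 133.5, 127.3 and 128.2 CPM in HFD AAV-BCKDK. No HFD AAV-CON library reached any library of the other groups. The fold change was -0.80 ± 0.16 with diet (edgeR, adjusted p = 0.00445) and 0.63 ± 0.16 with the vector (edgeR, adjusted p = 0.0152; adjusted p = 0.0531 without HFD AAV-CON replicate 3). Mrpl14, a core protein at the interface of the subunits, stood at 36.5, 42.9 and 41.1 CPM in ND AAV-CON, at 14.1, 30.2 and 23.5 CPM in HFD AAV-CON and at 39.7, 37.8 and 37.1 CPM in HFD AAV-BCKDK. Again HFD AAV-CON alone was low. Its diet fold change of -0.83 ± 0.22 passed the test (edgeR, adjusted p = 0.0144). Its vector fold change of 0.76 ± 0.22 passed too (edgeR, adjusted p = 0.0247), but not with any 1 of HFD AAV-CON replicate 3 and the HFD AAV-BCKDK replicates left out (adjusted p = 0.0546 to 0.0688).

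The stalk of the large subunit recruits translation factors, and 5 genes of the set encode its proteins: Mrpl10 and Mrpl11 form the base, Mrpl12 the arms, and Mrpl53 and Mrpl54 are mitochondrial additions. Of the 5 genes, 4 fell with diet and 3 rose with the vector. Mrpl12, also known for binding the mitochondrial RNA polymerase, stood at 125.3, 158.5 and 132.1 CPM in ND AAV-CON, at 70.9, 118.7 and 87.0 CPM in HFD AAV-CON and at 146.3, 133.1 and 125.7 CPM in HFD AAV-BCKDK. HFD AAV-CON replicate 2 came close to the lowest library of the other groups without reaching it. The fold change was -0.59 ± 0.17 with diet (edgeR, adjusted p = 0.0228) and 0.55 ± 0.17 with the vector (edgeR, adjusted p = 0.0335). Mrpl10 and Mrpl11 fell by 0.47 and 0.63 on the log2 scale with diet (edgeR, adjusted p = 0.0197 and 0.0101). Mrpl54 had -0.31 and was not called (edgeR, adjusted p = 0.209).

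Mrpl53 had the largest fitted fold change of the set, and its counts need care. It stood at 14.8, 57.2 and 36.8 CPM in ND AAV-CON, at 10.3, 11.1 and 15.4 CPM in HFD AAV-CON and at 18.9, 37.8 and 23.8 CPM in HFD AAV-BCKDK. The ND AAV-CON libraries spread widely, and the lowest of them lay below the highest HFD AAV-CON library. The gene (ENSMUSG00000030037, chr6:83109040-83109939, plus strand) shares 88.0% of its exon bases with Gm42688, a protein-coding gene model of the same strand that the table counts on its own. Gm42688 stood at 39.7, 8.32 and 23.3 CPM in the same ND AAV-CON libraries, high where Mrpl53 was low. The sum of both was 54.6, 65.5 and 60.1 CPM in ND AAV-CON, 35.0, 48.7 and 40.8 CPM in HFD AAV-CON and 54.3, 62.2 and 51.2 CPM in HFD AAV-BCKDK, so the summed groups of the diet comparison no longer overlapped. Mrpl53 alone had a diet fold change of -1.56 ± 0.43 (edgeR, adjusted p = 0.0177) and a vector fold change of 1.13 ± 0.43 that did not pass (edgeR, adjusted p = 0.0646). The sum, an alternative chosen after seeing the data, had -0.53 ± 0.13 with diet (edgeR, adjusted p = 0.0101) and 0.43 ± 0.13 with the vector (edgeR, adjusted p = 0.0282). The diet call of Mrpl53 alone was lost without ND AAV-CON replicate 2 (edgeR, adjusted p = 0.0702) and without HFD AAV-CON replicate 1 (edgeR, adjusted p = 0.0525).

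**Figure D2:**
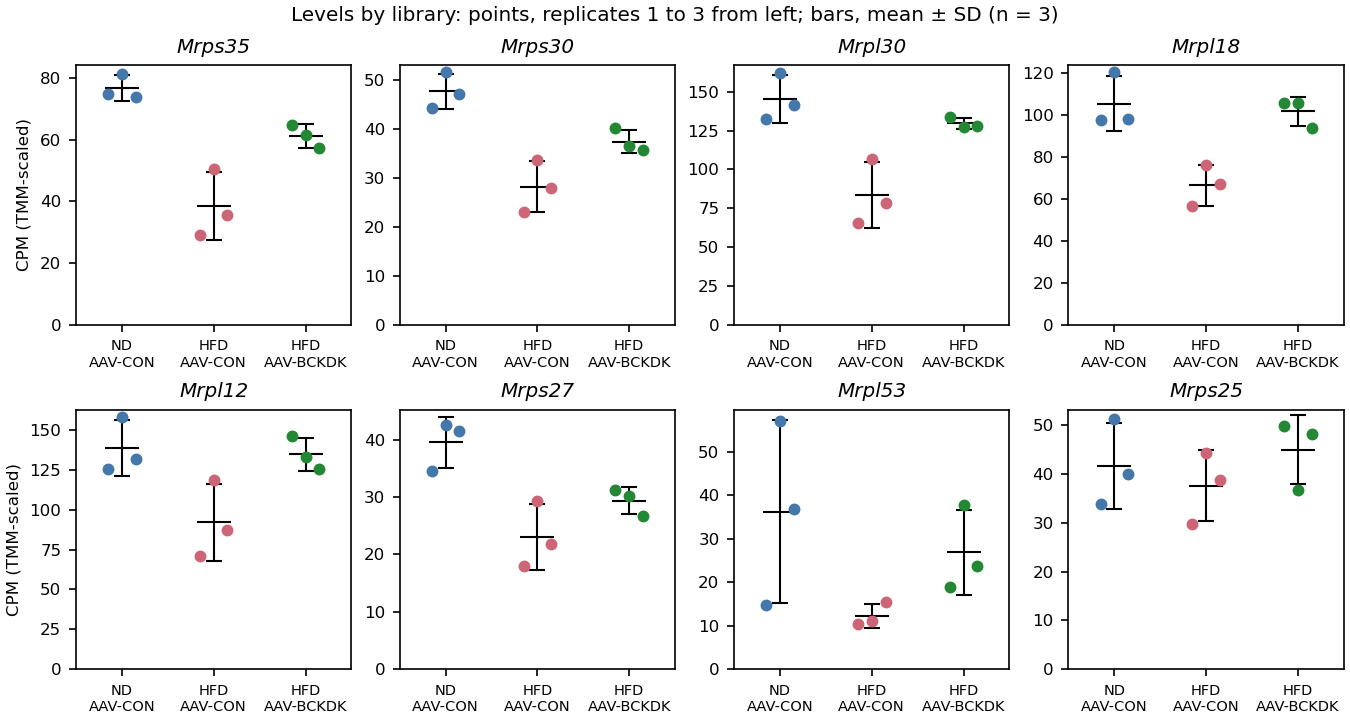
Level of 8 genes in every library in CPM on linear axes from 0, with points for replicates 1 to 3 from left and bars for the mean ± SD (n = 3). HFD AAV-CON lies below both other groups in Mrps35, Mrps30, Mrpl30, Mrpl18 and Mrpl12, it overlaps HFD AAV-BCKDK in Mrps27, Mrpl53 spreads widely within ND AAV-CON, and all groups of Mrps25 overlap.

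The central protuberance of the large subunit faces the head of the small subunit. Of its 8 genes, 6 fell with diet and 5 rose with the vector, with medians of -0.50 and 0.41, the latter turning to -0.02 with total-count scaling. Besides Mrpl18, Mrpl55 fell by 0.60 on the log2 scale (edgeR, adjusted p = 0.00823), Mrpl40 by 0.47 (edgeR, adjusted p = 0.00829), Mrpl38 by 0.52 (edgeR, adjusted p = 0.0190) and Mrpl48, which also has an annotated pseudogene, by 0.39 (edgeR, adjusted p = 0.0287). Mrpl46 had the second smallest p in the vector comparison. It stood at 26.2, 32.6 and 25.7 CPM in ND AAV-CON, at 14.2, 21.2 and 15.1 CPM in HFD AAV-CON and at 31.4, 29.2 and 26.0 CPM in HFD AAV-BCKDK. HFD AAV-CON was low, and the other groups overlapped. The vector fold change was 0.78 ± 0.16 (edgeR, adjusted p = 0.00711), and Mrpl46 was 1 of the 3 genes, with Mrpl50 and Mrps24, still called higher with total-count scaling (log2 fold change 0.35, edgeR, adjusted p = 0.0405). The other 2 genes of the protuberance, Mrpl27 and Mrpl52, were called in neither comparison.

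Proteins around the exit of the nascent chain include Mrpl45, which holds the ribosome to the inner membrane. All 8 of their genes fell with diet, with log2 fold changes from -0.75 in Mrpl23 to -0.46 in Mrpl45, and 7 rose with the vector. Between these lay Mrpl22 (-0.68), Mrpl39 (-0.64), Mrpl44 (-0.59), Mrpl17 (-0.51), Mrpl47 (-0.49) and Mrpl24 (-0.47). The gene not called with the vector was Mrpl24 (0.30, edgeR, adjusted p = 0.0606). Mrpl23, a docking point at the exit, stood at 35.2, 45.5 and 38.7 CPM in ND AAV-CON, at 18.5, 30.3 and 22.4 CPM in HFD AAV-CON and at 38.4, 36.1 and 32.6 CPM in HFD AAV-BCKDK. No HFD AAV-CON library overlapped either other group. Mrpl23 also followed the other members most closely, with a Pearson r of 0.997 between its log2 CPM and the mean of the other 77 over 9 libraries, a description of libraries that share groups and scaling. The annotation lists a pseudogene of Mrpl23, with which reads could be shared, so its counts are uncertain.

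Among the 21 large subunit genes specific to mitochondria, 19 fell with diet and 14 rose with the vector. Mrpl58, a peptidyl-tRNA hydrolase that became part of the ribosome and whose promoter is shown above, stood at 35.7, 36.4 and 38.3 CPM in ND AAV-CON, at 17.4, 28.1 and 23.3 CPM in HFD AAV-CON and at 32.4, 29.6 and 28.0 CPM in HFD AAV-BCKDK. ND AAV-CON was the highest group without overlap, while HFD AAV-CON replicate 2 exceeded HFD AAV-BCKDK replicate 3. The diet fold change was -0.68 ± 0.15 (edgeR, adjusted p = 0.00666), and the vector fold change of 0.39 ± 0.15 did not pass (edgeR, adjusted p = 0.0664). Mrpl50 had the third smallest p of the vector comparison. Its level was 53.8, 58.9 and 49.7 CPM in ND AAV-CON, 27.1, 43.9 and 33.2 CPM in HFD AAV-CON, and 66.9, 57.3 and 52.0 CPM in HFD AAV-BCKDK. The low group was HFD AAV-CON, and its vector fold change was 0.76 ± 0.17 (edgeR, adjusted p = 0.00889).

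In the small subunit, 12 of 16 genes with a bacterial counterpart fell with diet and 12 rose with the vector. Mrps15, an early-binding protein of the platform, stood at 44.9, 47.1 and 44.0 CPM in ND AAV-CON, at 25.0, 32.9 and 29.7 CPM in HFD AAV-CON and at 45.2, 39.2 and 37.9 CPM in HFD AAV-BCKDK. The ND AAV-CON libraries lay close together, and HFD AAV-CON lay below both groups. The fold change was -0.64 ± 0.11 with diet (edgeR, adjusted p = 0.00227) and 0.48 ± 0.11 with the vector (edgeR, adjusted p = 0.0103). With total-count scaling the diet value was -0.26 (edgeR, adjusted p = 0.0512). Mrps24, which lines the entry of the mRNA, stood at 50.9, 61.3 and 51.9 CPM in ND AAV-CON, at 22.3, 38.0 and 30.3 CPM in HFD AAV-CON and at 54.5, 48.3 and 50.8 CPM in HFD AAV-BCKDK. Its groups with HFD AAV-CON did not overlap, and the fold change was -0.86 ± 0.17 with diet (edgeR, adjusted p = 0.00406) and 0.76 ± 0.17 with the vector (edgeR, adjusted p = 0.00922). Mrps24 was called in both comparisons with total-count scaling too. Mrps28 had the third largest vector fold change apart from Mrpl53, 0.78 ± 0.21 (edgeR, adjusted p = 0.0183).

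Of the 10 mitochondrion-specific small subunit genes, 8 fell with diet and 5 rose with the vector, with a vector median of 0.40 that turned to -0.04 with total-count scaling. Mrps27, a pentatricopeptide protein of the subunit's foot, stood at 34.5, 42.7 and 41.5 CPM in ND AAV-CON, at 17.98, 29.3 and 21.9 CPM in HFD AAV-CON and at 31.3, 30.2 and 26.7 CPM in HFD AAV-BCKDK. ND AAV-CON was above both HFD groups in every library, and the HFD groups overlapped. The diet fold change was -0.78 ± 0.17 (edgeR, adjusted p = 0.00582), and the vector fold change of 0.35 ± 0.17 did not pass (edgeR, adjusted p = 0.122). Mrps36, the dehydrogenase component, moved with the set: 53.1, 63.6 and 52.2 CPM in ND AAV-CON, 25.0, 41.3 and 30.6 CPM in HFD AAV-CON, and 56.5, 50.7 and 47.8 CPM in HFD AAV-BCKDK. HFD AAV-CON alone was low, with fold changes of -0.80 ± 0.17 (edgeR, adjusted p = 0.00535) and 0.68 ± 0.17 (edgeR, adjusted p = 0.0142). The annotation lists pseudogenes of Mrps36, with which reads could be shared, so its counts are uncertain.

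The S18 paralogs are 3 proteins of which each ribosome holds Mrps18b and Mrps18c in the small subunit and Mrps18a in the large one. Mrps18a fell with diet (-0.44, edgeR, adjusted p = 0.0476) and rose with the vector (0.51, edgeR, adjusted p = 0.0330). Mrps18b and Mrps18c were called in neither comparison, with diet fold changes of -0.21 and -0.37. HFD AAV-CON replicate 2 of Mrps18a, at 44.4 CPM, lay above the lowest ND AAV-CON library, at 42.9 CPM. The difference between the paralogs' fold changes was not tested.

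Mutations in Mrpl3, Mrpl44 and Mrps22 are linked to human cardiomyopathy. All 3 genes fell with diet and 2 rose with the vector. Mrpl44 stood at 44.3, 55.8 and 48.2 CPM in ND AAV-CON, at 26.6, 41.0 and 31.4 CPM in HFD AAV-CON and at 52.2, 44.0 and 43.6 CPM in HFD AAV-BCKDK, with a diet fold change of -0.59 ± 0.16 (edgeR, adjusted p = 0.0154). Mrpl3 had -0.55 with diet and 0.51 with the vector (edgeR, adjusted p = 0.0197 and 0.0305). Mrps22 stood at 19.6, 20.6 and 19.7 CPM in ND AAV-CON and at 12.3, 17.7 and 14.1 CPM in HFD AAV-CON, and its vector fold change of 0.30 did not pass (edgeR, adjusted p = 0.1).

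Some members had small fold changes. The 3 large subunit genes with the smallest range over the group means were Mrpl52, Mrpl27 and Mrpl20, and the 3 of the Mrps series were Mrps18b, Mrps25 and Mrps6. None of these 6 was called in any comparison. Mrps25 stood at 33.8, 51.3 and 40.1 CPM in ND AAV-CON, at 29.8, 44.3 and 38.8 CPM in HFD AAV-CON and at 49.9, 36.8 and 48.3 CPM in HFD AAV-BCKDK, and the 3 groups overlapped. The gene shares 69.8% of its exon bases with Nr2c2 on the opposite strand, and whether the authors counted by strand is not given in the sources used here. Summed with Nr2c2, it had a diet fold change of -0.16 ± 0.09 that did not pass (edgeR, adjusted p = 0.180). Mrpl52, which shares no exon, stood at 10.3, 14.96 and 11.3 CPM in ND AAV-CON and at 9.05, 12.0 and 11.8 CPM in HFD AAV-CON, and these groups overlapped. Mrps34 shares 77.8% of its exon bases with Mapk8ip3 on the opposite strand and with Nme3, and its calls (-0.42 with diet, 0.39 with the vector) carry the same uncertainty. Mrps6 shares 19.9% of its 1533 exon bases with other genes, 305 bases with Gm49711 and 159 with Slc5a3. Slc5a3 rose with diet (log2 fold change 1.05, edgeR, adjusted p = 0.00177). Mrps6 was not summed with either gene, and the part of this overlap in its fold change was not tested. Leaving out every gene that shares an exon with another annotated gene left 45 members, of which 39 fell with diet and 36 rose with the vector.

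The BCKDK vector under high-fat diet was compared with the control vector under the same diet. Transcripts of mitochondrial ribosomal proteins were higher with the BCKDK vector. In HFD AAV-BCKDK, 56 of the 78 genes rose, none fell and 22 were not called (edgeR), against 17.3% of all genes called higher. The median log2 fold change was 0.48, beside -0.01 over all genes tested, and all 78 were positive, from 0.19 in Mrpl19 to 1.13 in Mrpl53. In 61 genes all 3 HFD AAV-BCKDK libraries lay above all 3 HFD AAV-CON libraries, against 24% of genes tested. With total-count scaling the median was 0.04, 3 genes were called higher against 2.81% of all genes, and 47 of the 78 fold changes were above 0. Among genes called higher with TMM factors, those of Mrps30, Mrps10, Mrpl32, Mrpl40, Mrpl45, Mrps2, Mrps34, Mrpl35, Mrpl48, Mrpl33 and Mrps17 turned below 0. Relative to the median of all genes, the members' median was 0.49 with TMM factors and 0.51 with total counts, a likeness that is built in as in the diet comparison. The count fell to 29 without HFD AAV-CON replicate 1, to 15 without HFD AAV-CON replicate 3, and to 10, 18 and 35 without HFD AAV-BCKDK replicates 1, 2 and 3, while all 78 fold changes stayed positive in each of these fits. Shares of all genes called in these smaller fits are not given here either.

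Both comparisons use the HFD AAV-CON libraries, so their values are set side by side and no likeness is read from them. By edgeR's calls, 54 genes were lower with diet and higher with the vector, 13 were lower with diet only, 2 were higher with the vector only and 9 were called in neither. The pair called with the vector only were Mrpl28 and Mrps17, whose diet values just missed the threshold (edgeR, adjusted p = 0.0530 and 0.0536). Mrpl28 stood at 83.3, 100.4 and 87.5 CPM in ND AAV-CON, at 38.7, 81.7 and 55.5 CPM in HFD AAV-CON and at 118.9, 91.5 and 92.0 CPM in HFD AAV-BCKDK. HFD AAV-CON replicate 2 lay just under the lowest ND AAV-CON library, and no groups with HFD AAV-CON overlapped. The 13 called with diet only included Mrps27, Mrpl58, Mrps22 and Mrpl53.

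With both diet and vector differing, HFD AAV-BCKDK was also compared with ND AAV-CON. No member was called in either direction (edgeR), against 2.45% of all genes, and DESeq2 and limma-voom called none either. By each of the 3 tools, 2 members had an unadjusted p under 0.05. The median log2 fold change was -0.07, beside -0.03 over all genes, and the values ran from -0.43 to 0.16, with 62 of 78 below 0. The level in HFD AAV-BCKDK was 74.1% to 111.5% of that in ND AAV-CON, with a median of 95.1%. In 6 genes, Mrps35, Mrps27, Mrpl42, Mrps30, Mrpl58 and Mrpl39, all HFD AAV-BCKDK libraries lay below all ND AAV-CON libraries, against 15.1% of genes tested. The most negative values were those of Mrpl53 (-0.43), Mrps27, Mrps30, Mrps35 (-0.33), Mrpl58 (-0.29) and Mrps26 (-0.20), and the highest those of Mrpl28 (0.16), Mrpl50, Mrpl36, Mrps6 (each 0.12), Mrps25 (0.11) and Mrpl54 (0.09). The smallest p values belonged to Mrps30 (-0.35 ± 0.13, edgeR, adjusted p = 0.206) and Mrps27 (-0.43 ± 0.17, edgeR, adjusted p = 0.227). When only these 2 groups were fitted, Mrps35 passed with -0.31 (edgeR, adjusted p = 0.0452). Mrpl36 was the only gene of the set with every HFD AAV-BCKDK library above every ND AAV-CON library, against 1790 of 14160 genes tested. It stood at 32.6, 33.2 and 31.6 CPM in ND AAV-CON and at 33.5, 36.3 and 35.8 CPM in HFD AAV-BCKDK, and the difference did not pass. A p that misses the threshold does not show equal levels: in this comparison the SE was 0.42 for Mrpl53 and 0.10 for Mrpl19. The SE of a member's fold change in the diet comparison was 0.10 to 0.43, with a median of 0.15.

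**Figure D3:**
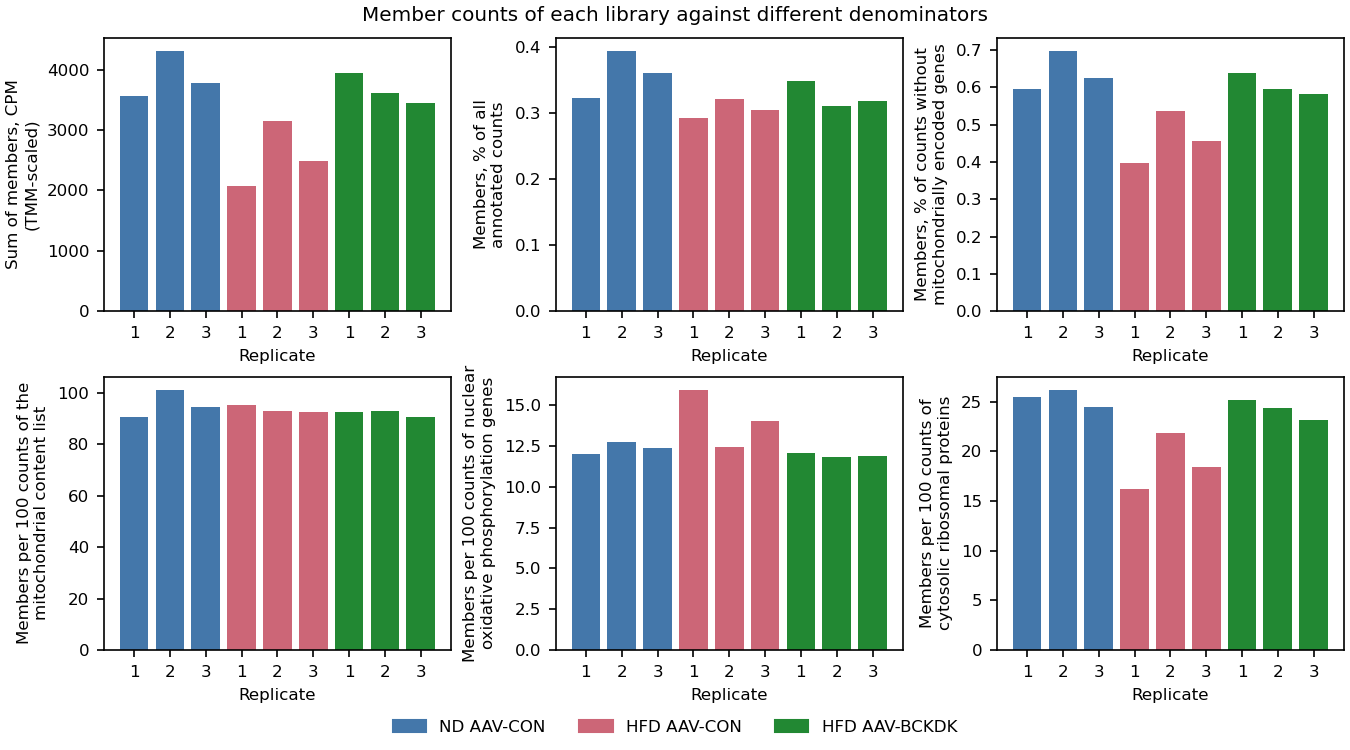
Counts of the 78 genes in each library as summed CPM, as a percentage of all annotated counts and of counts without mitochondrially encoded genes, and per 100 counts of 3 reference lists, with bars from 0 for replicates 1 to 3 of each group. HFD AAV-CON is low by summed CPM, by the percentage of nuclear counts and against cytosolic ribosomal proteins, overlaps HFD AAV-BCKDK as a percentage of all annotated counts, is level with the other groups against the mitochondrial content list, and reaches the highest values against nuclear oxidative phosphorylation genes.

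Added together, the 78 genes gave 3885 ± 383 CPM under ND AAV-CON (SD, n = 3). The sum was 2569 ± 539 CPM in HFD AAV-CON, and with HFD AAV-BCKDK it was 3669 ± 254 CPM. Per library the sums were 3565, 4310 and 3780, then 2071, 3142 and 2493, then 3948, 3610 and 3450. HFD AAV-CON did not overlap with the other groups on this scale. As a share of all annotated counts, members held 0.324% to 0.395% in ND AAV-CON, 0.294% to 0.322% of counts in HFD AAV-CON and 0.311% to 0.349% in HFD AAV-BCKDK. Mitochondrially encoded transcripts, which filled 42.1% to 45.7%, 26.1% to 39.9% and 45.0% to 47.6% of annotated counts in the same order, are part of that denominator. Without them, members held 0.596% to 0.698%, 0.397% to 0.536% and 0.581% to 0.638%.

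The ratio of members to other nuclear transcripts for mitochondrial proteins depended on the list. Per 100 counts of 12 genes taken as a measure of mitochondrial content, among them Cs, Vdac1 and Tomm20, members had 90.5 to 101.2 counts in ND AAV-CON, then 92.6 to 95.2 in HFD AAV-CON and then 90.5 to 93.0 in HFD AAV-BCKDK. Per 100 counts of mitochondrial translation factor genes they had 384.6 to 423.4, 392.6 to 406.9 and 401.4 to 407.8. The 3 groups overlapped in both ratios. Per 100 counts of 59 nuclear genes of oxidative phosphorylation they had 12.0 to 12.8, 12.4 to 15.95 and 11.8 to 12.0, so HFD AAV-CON overlapped with ND AAV-CON and lay above HFD AAV-BCKDK. Per 100 counts of cytosolic ribosomal protein genes they had 24.5 to 26.2, 16.2 to 21.8 and 23.2 to 25.2, and HFD AAV-CON was low without overlap. Within the set, Mrpl genes held 67.8% to 69.2% of member counts in every library.

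The shares of single members within the set were also set side by side. As shares of all member counts, 10 genes (12.8%) were lower and 19 (24.4%) higher in every HFD AAV-CON library than in every ND AAV-CON library. This measure has no share over all genes to set beside it. A gene that falls less than the rest of the set rises in share, and the differences in share were not tested. Mrps35 made up 1.98% of member counts in ND AAV-CON, but 1.48% in HFD AAV-CON and then 1.67% in HFD AAV-BCKDK. Mrps24, Mrpl14, Mrps36 and Mrpl30 were also among the 10. Mrpl52, Mrps25, Mrps6, Mrps18b and Mrpl27 had the largest increases in share, and Mrps25, whose exons overlap with Nr2c2, went from 1.07% to 1.47%. These shares are relative, so a rise in share can accompany a lower level.

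Markers of the cell types of the ventricle moved too, some in the members' direction and some against it. Of 12 cardiomyocyte markers, 10 fell with diet, against 20.6% of all genes, and 8 rose with the vector, against 17.3%. Their summed level was 56160 to 59200 CPM in ND AAV-CON, 25440 to 45440 CPM in HFD AAV-CON and 50310 to 54800 CPM in HFD AAV-BCKDK. Members per 100 counts of these markers were 6.32 to 7.28, 6.91 to 8.14 and 6.59 to 7.21, and the groups overlapped. All 8 macrophage markers rose with diet, against 22.7% of all genes, and fell with the vector, against 20.9%, with sums of 669 to 932, 1868 to 3066 and 512 to 672 CPM. Of 8 fibroblast markers, 6 rose with diet and 7 fell with the vector, with sums of 1326 to 1408, 1897 to 4518 and 1159 to 1284 CPM. All 5 T and NK cell markers did the same, with sums of 1.16 to 28.2, 73.5 to 131 and 1.43 to 9.02 CPM. None of the fibroblast or macrophage markers was at 0 in any library, and 1 T and NK cell marker was at 0 in 1 ND AAV-CON library. Of 6 endothelial markers, 4 fell with diet and 6 rose with the vector, and all 5 erythroid markers fell and rose likewise. Of 5 smooth muscle and pericyte markers, 2 (40%) fell with diet and 1 (20%) rose with the vector, the latter near the 17.3% of all genes. Of 4 B cell markers, none was called with diet and 2 fell with the vector. HFD AAV-CON replicate 1, lowest for most members, had the lowest cardiomyocyte sum and the highest macrophage sum. The part of these cell types in the members' result was not tested.

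The rest of the mitochondrial translation apparatus was followed on lists drawn up with earlier results of these data known. The 5 mitoribosomal proteins that carry other names, Dap3, Ptcd3, Aurkaip1, Chchd1 and Gadd45gip1, all fell with diet and all rose with the vector. Gadd45gip1 stood at 40.3, 50.8 and 44.3 CPM in ND AAV-CON, at 21.8, 28.8 and 24.2 CPM in HFD AAV-CON and at 36.8, 38.5 and 32.7 CPM in HFD AAV-BCKDK, with a diet fold change of -0.86 ± 0.13 (edgeR, adjusted p = 0.00123). The groups did not overlap, with HFD AAV-BCKDK in the middle. Ptcd3 had -0.78 with diet and 0.65 with the vector, and Dap3 had -0.58 and 0.52.

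Of 25 assembly factors of the mitoribosome, 17 (68%) fell with diet and 11 (44%) rose with the vector. Over all genes these shares were 20.6% and 17.3%, also for the lists that follow. The medians were -0.52 and 0.38, the latter -0.05 with total-count scaling. With that scaling, 3 factors were lower and 1 higher with diet, and 3 were lower and 0 higher with the vector. Of all 14160 genes, 6867 were then lower with the vector. Mtg2, a GTPase of large subunit assembly, fell by 0.74 on the log2 scale with diet (edgeR, adjusted p = 0.00159), and Ngrn, which acts on the large ribosomal RNA, fell by 0.61 (edgeR, adjusted p = 0.00192). Of 19 translation factors tested, 14 fell and 13 rose. Mtif3, an initiation factor, had -0.62 with diet (edgeR, adjusted p = 0.00115) and 0.44 with the vector (edgeR, adjusted p = 0.00600). Mtrf1, a release factor, had -0.89 with diet (edgeR, adjusted p = 0.00157). Of 17 mitochondrial aminoacyl-tRNA synthetases, which charge the organelle's tRNAs, 12 fell and 9 rose, with a vector median of 0.32 that turned to -0.13 with total-count scaling and with Nars2 (-0.74) and Rars2 (-0.42) the first by diet p.

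The mRNAs that this machinery translates were measured as well, but not its protein products. The 2 mitochondrial ribosomal RNAs were not analysed here. Of 7 genes of mitochondrial transcription, 5 fell with diet and 4 rose with the vector, led by Mterf2 (-1.11, edgeR, adjusted p = 0.00235) and Polrmt, the RNA polymerase (-0.47, edgeR, adjusted p = 0.00448). Of the 13 mitochondrially encoded mRNAs, 5 fell with diet and 11 rose with the vector, with medians of -0.75 and 0.91. There were 110 to 141 counts of them per member count in ND AAV-CON, then 88.8 to 123.7 in HFD AAV-CON and then 130 to 153 in HFD AAV-BCKDK. Of 59 nuclear oxidative phosphorylation genes, whose products assemble with those proteins, 54 fell with diet and 55 rose with the vector, with medians of -0.78 and 0.76. Ndufa12 (-1.21) and Ndufs8 (-0.83) had the smallest diet p.

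Cytosolic ribosomal protein genes gave another pattern. Of 81 tested, 12 fell and 1 rose with diet, and the 14.8% that fell stood below the 20.6% of all genes. The diet median was -0.17, and it turned to 0.21 with total-count scaling, with 15 genes higher and 1 lower. With the vector 9 rose and 1 fell, with a median of 0.17 that turned to -0.28 with total-count scaling, with 1 higher and 37 lower. Against the members' 67 of 78 with diet, this is a description, and the difference between the lists was not tested. Of 8 regulators known to act on mitochondrial gene promoters, 2 (25%) fell with diet and 1 (12.5%) rose, against 20.6% and 22.7% of all genes tested. With total-count scaling 0 were lower and 3 higher, against 5985 of 14160 genes higher. The regulators' median went from -0.06 to 0.35. Gabpa, the DNA-binding part of GABP, fell (-0.27, edgeR, adjusted p = 0.0117, and 0.14 with total-count scaling). The coactivator Ppargc1b fell too (-0.65, edgeR, adjusted p = 0.0430), and Myc rose (0.66, edgeR, adjusted p = 0.0292). Nrf1 (0.01), Yy1 (0.10), Esrra (-0.39), Gabpb1 (-0.13) and Ppargc1a (0.32) were not called with diet. Messenger levels say nothing of the activity of these factors.

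**Figure D4:**
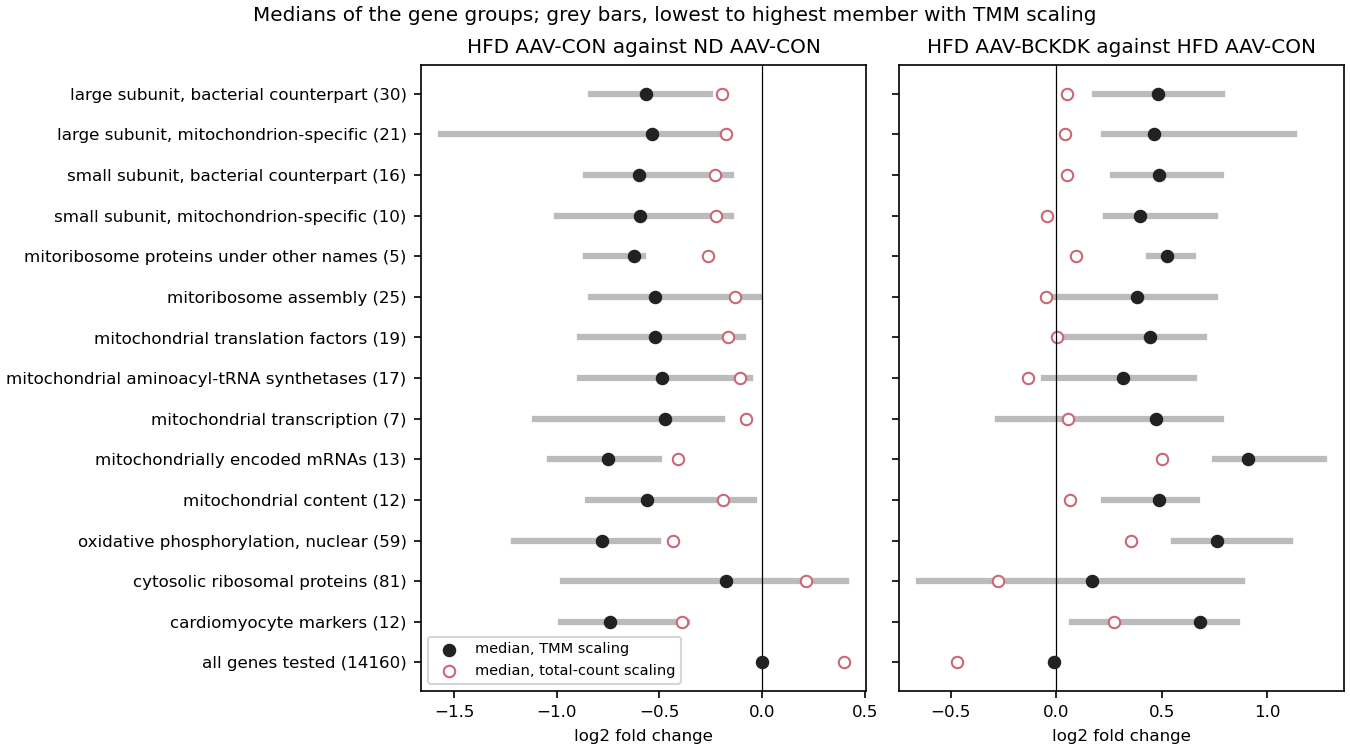
Median log2 fold change of each gene group, with the number of genes tested in brackets, for diet on the left and vector on the right; filled points use TMM factors, open points total-count scaling, and grey bars run from the lowest to the highest gene of the group with TMM factors (no bar for all genes). The 4 member groups have medians from -0.60 to -0.54 with diet and from 0.40 to 0.49 with the vector (the mitochondrion-specific small subunit turns to -0.04 with total counts), while cytosolic ribosomal proteins lie nearer 0 and change sign with the scaling.

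Levels differed widely between members. Per kilobase of exon in ND AAV-CON, Mrpl12 (90.5 ± 11.4 CPM per kb, SD, n = 3), Mrps23 (87.3 ± 10.3) and Mrpl18 (75.4 ± 9.34) were highest, and the first pair differed by less than their spread. The lowest were Mrps10 (2.36 ± 0.25), Mrpl19 (4.11 ± 0.27) and Mrpl48 (4.26 ± 0.30), of which Mrpl19 and Mrpl48 differed by less than their spread. The median was 18.2 CPM per kb. Exon length counts every annotated isoform, so a gene with long rare exons is placed too low on this scale. By rank within a library, the median member stood at percentile 87.4 to 89.4 of genes tested in ND AAV-CON, at 81.1 to 86.1 in HFD AAV-CON and at 87.6 to 88.7 in HFD AAV-BCKDK.

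**Figure D5:**
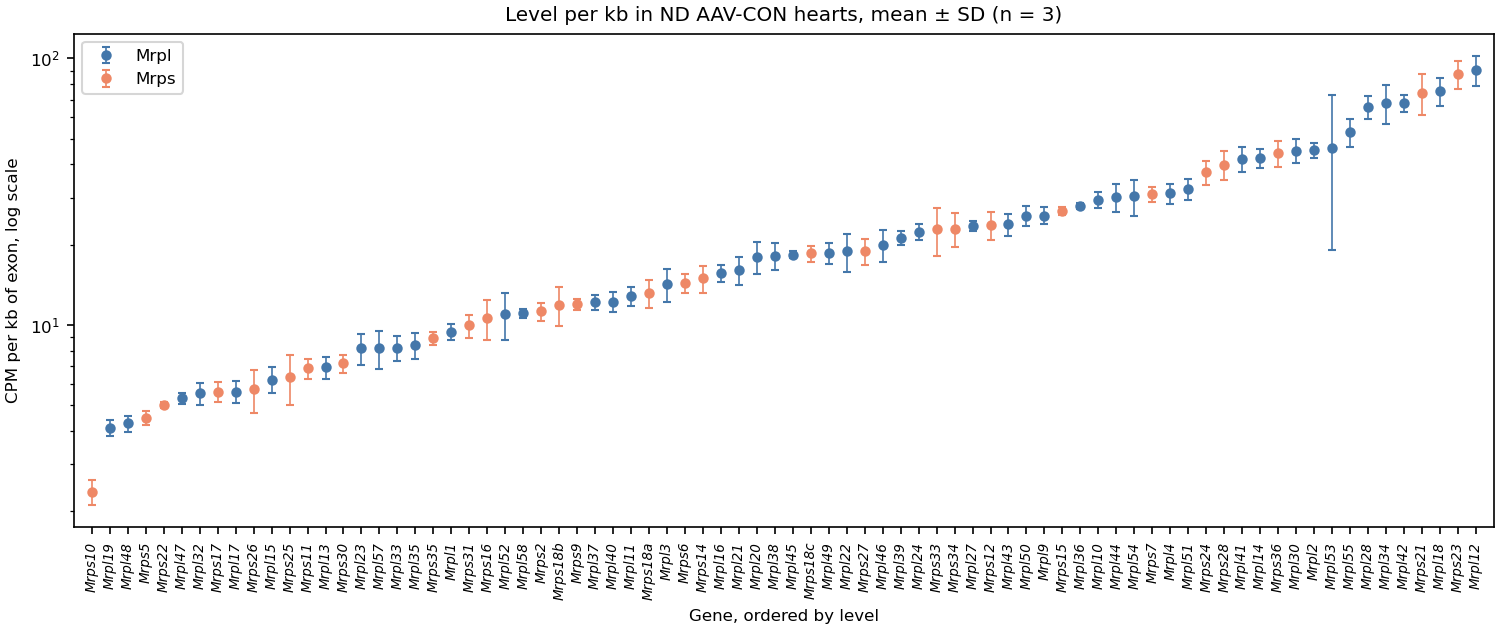
Level per kilobase of exon of the 78 genes in ND AAV-CON on a log axis, mean ± SD (n = 3), ordered by level, with Mrpl and Mrps genes in different colours. Mrps10 is lowest at 2.36 and Mrpl12 highest at 90.5 CPM per kb, both name series are spread over the whole range, and Mrpl53 has the widest bar.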

How the data were processed

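Libraries were prepared from left ventricle RNA with an mRNA-seq kit, per the labels' protocols. Reads were aligned to mm10 with HISAT2 2.0.5, per the submitters' processing notes. No source used here names the tool or annotation of the counting, or says whether strand was used. The authors deposited raw counts per gene for 9 libraries. Entries without a gene name (4142 of 26178) stayed out of library sizes and tests.

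Counts were fitted with edgeR 4.0.16 in R 4.3.3 (TMM factors, filterByExpr, quasi-likelihood test, all 9 libraries, 1 coefficient per group), with Benjamini-Hochberg adjustment over 14160 genes and a threshold of 0.05. "Called" means past that threshold, and fold changes are on the log2 scale. CPM were computed here from TMM-scaled libraries. No batch is named in the labels. Permuting 3 libraries against 3 cannot give a p below 0.1, so single genes rest on the fit. Scripts were tested on simulated data. Alternatives included DESeq2 1.42.0, limma 3.58.1 (voom), other scalings and filters, each library left out and a replicate block. Exon positions are from GENCODE M21 on GRCm38. Members with values are the extremes of each comparison by p and fold change, of level and of spread, and all genes of the structural lists. Members and lists were chosen with earlier results of these data known.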

Additional observations from a re-analysis of the deposited data

How the results depend on the processing

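The diet count of 67 genes called lower was 65 to 70 under RLE or upper-quartile factors, without mitochondrially encoded genes, with unnamed loci, other filters, DESeq2, limma-voom or overlapping genes summed, and 57 with only the 2 groups fitted. The vector count of 56 was 50 to 62 under the same alternatives, apart from the 2-group fit, which gave 32. With total-count scaling the counts were 19 and 3 and the medians -0.21 and 0.044, since the median of all genes then shifts. A threshold of 0.01 gave 27 and 4, and a threshold of 0.05 with a 1.5-fold change gave 38 and 18. Leaving out each library in turn gave 36 to 75 genes lower with diet and 10 to 71 higher with the vector, all with fewer samples. The medians then ran from -0.73 to -0.45 and from 0.39 to 0.64. The share of all genes called is not given for these thresholds and smaller fits. A loss of calls particular to the members therefore cannot be told from a general one. The diet fold change stayed negative in all 78 genes except with total-count scaling (66) and without ND AAV-CON replicate 2 (76), and the vector fold change stayed positive in all 78 except with total-count scaling (47). The genes that turned sign with total-count scaling include Mrpl36 with diet (0.00045) and Mrps30 with the vector (-0.021). Between HFD AAV-BCKDK and ND AAV-CON, 1 gene was called lower when only those groups were fitted, and none in the other alternatives. Correlations between the deviations of same-numbered libraries were -0.22 to 0.19, and whether these libraries shared a batch is not known. A fit with the replicate block called 66 genes lower with diet, 58 higher with the vector and 0 between HFD AAV-BCKDK and ND AAV-CON. The cause of these changes was not tested. With 3 libraries a group, and HFD AAV-CON spread most, a single library moved the counts more than the tool did.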

Other observations

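Many mitochondrial genes share a short promoter region with a gene on the opposite strand. For 23 of the 78 genes a protein-coding gene started within 1000 bases in the other direction, and 22 of these neighbours were tested. With diet, 4 neighbours were called lower and 3 higher by edgeR, with a median log2 fold change of -0.03, against 20.6% of all genes tested called lower and 22.7% called higher, so the neighbours' counts are near the background. Mitd1, whose start lies 66 bases from that of Mrpl30, stood at 2.21, 3.83 and 3.26 CPM in ND AAV-CON and at 5.84, 4.36 and 5.56 CPM in HFD AAV-CON, without overlap (log2 fold change 0.76, edgeR, adjusted p = 0.0176). Ptcd2, 81 bases from Mrps27 and itself a gene of mitochondrial RNA processing, had -0.57 (edgeR, adjusted p = 0.00609). The other falls were Ndufs6 beside Mrpl36 (-0.81), Cyb5rl beside Mrpl37 (-0.84) and Sars2 beside Mrps12 (-0.59), and the other rises Ska3 beside Mrpl57 (1.04) and Gga3 beside Mrps7 (0.49).

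Among all other genes tested, those whose log2 CPM followed the mean of the 78 most closely over the 9 libraries were Acot13, an acyl-CoA thioesterase of mitochondria (Pearson r = 0.997), Hint2, a mitochondrial nucleotide hydrolase (0.996), Pfdn5, a prefoldin subunit (0.996), Chchd10, a protein of the intermembrane space (0.995), and Ndufs3, a complex I subunit (0.994). The libraries share groups and scaling, so these values are a description.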
